A study of Homo sapiens with 24 samples.

Results

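The lysosome and its transcriptional controllers were examined through 36 genes out of 60617 in the deposited count table. They were taken as the rows whose Ensembl identifiers map to a list of named genes. The list holds 6 lysosomal or late endosomal membrane proteins with LAMP3 among them, 8 cathepsins, 13 other hydrolases and their activators, 6 subunits of the vacuolar proton pump (V-ATPase) and the MiT-TFE transcription factors TFEB, TFE3 and MITF. Of the 36 genes, 34 had enough counts to be tested. The other 2, CD68 and CTSS, are described by level alone.

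RNA came from MDA686TU (686Tu), a malignant human head and neck squamous carcinoma cell line, and was sequenced as stranded poly(A)-selected libraries. The 4 groups of 6 libraries were an untreated control, epigallocatechin gallate (EGCG, the main green tea polyphenol) at 40 µM, resveratrol (a polyphenol of grapes) at 15 µM, and both agents together at these doses, here called the combination. All cells were harvested after 24 h. Only 1 cell line was sequenced here, and nothing in the sources used says that the 6 libraries of a group were separate experiments, so the p-values measure the spread between these libraries, which may be technical. The resveratrol stock was dissolved in DMSO, and whether the control and EGCG cultures received the same solvent is not given in the sources used here.

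Lysosomes degrade proteins, lipids and glycans with acid hydrolases, in a lumen kept acidic by the V-ATPase and bounded by a membrane rich in heavily glycosylated LAMP proteins. TFEB, TFE3 and MITF bind a short palindromic element in the promoters of many lysosomal genes, the CLEAR element, and are held in the cytoplasm by mTORC1 when nutrients are plentiful, so that their activity is set largely by where the protein is. LAMP3, also called DC-LAMP, is an inducible member of the LAMP family that was first described in mature dendritic cells and is also found in squamous carcinomas, where stress responses and hypoxia are known to raise it.

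The element that gives the network its name was read from the RefSeq promoters of build GRCh38.p14, each running from 250 bases before the gene start to 50 bases after it. The table held 24 of the 36 genes. The 12 without an entry were LAMP2, LAMP3, CTSB, CTSS, HEXA, NAGLU, SGSH, PSAP, ASAH1, ATP6V1A, ATP6V1B2 and ATP6V1H. The full palindrome TCACGTGA was present in 5 promoters (ATP6V0D1, CTSA, GAA, LAMP1 and MCOLN1), against 0.98% of the 35116 promoters in the table. The shorter TCACGTG, searched on both strands and contained in the palindrome, was in 7 of the 24 (the same 5 with CTSD and NEU1) and in 3.71% of all promoters. The core CACGTG, contained in both, was in 8 (these 7 with CD63) and in 7.26% of all promoters. The windows below show 1 match in each of the 7 promoters, in capitals, read 5′ to 3′ on the strand of the gene, because they carry both genes that rose with resveratrol and genes that did not.
GAA, chr17:80101524-80101581, plus strand: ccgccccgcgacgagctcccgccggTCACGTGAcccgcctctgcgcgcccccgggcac
MCOLN1, chr19:7522557-7522614, plus strand: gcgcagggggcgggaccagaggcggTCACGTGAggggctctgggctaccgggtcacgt
LAMP1, chr13:113297185-113297242, plus strand: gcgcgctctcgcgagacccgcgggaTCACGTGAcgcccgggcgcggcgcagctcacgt
CTSA, chr20:45891284-45891341, plus strand: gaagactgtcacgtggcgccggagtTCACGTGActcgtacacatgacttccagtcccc
ATP6V0D1, chr16:67481185-67481242, minus strand: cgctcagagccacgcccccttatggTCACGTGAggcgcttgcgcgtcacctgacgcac
NEU1, chr6:31862916-31862973, minus strand: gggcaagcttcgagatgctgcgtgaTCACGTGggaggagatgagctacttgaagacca
CTSD, chr11:1763943-1764000, minus strand: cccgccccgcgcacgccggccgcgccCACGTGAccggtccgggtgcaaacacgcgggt

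Values below are normalized counts (raw counts divided by the size factor of the library, as deposited) unless FPKM, which also divides by gene length, is named. A gene is said to rise or fall where the edgeR quasi-likelihood test over all 15476 tested genes gave a Benjamini-Hochberg adjusted p under 0.1 and a p under 0.05. Library totals ran from 7034872 to 11735574 counts. The mitochondrial share of counts was 0.249% to 0.326% in replicates 1 to 3 of all groups and 0.448% to 0.775% in replicates 4 to 6, so the main values are also given within each of these sets. All 8 squamous epithelial markers were tested and abundant, with summed levels of 156963 to 165841 in control, 149925 to 169647 with EGCG, 129428 to 137153 with resveratrol and 128074 to 139281 with the combination. In such bulk samples, a change in the number of cells of a kind and a change in RNA per cell cannot be told apart.

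The cells expressed most of the lysosomal set before any treatment. On the FPKM scale, which allows levels of different genes to be compared, the control means ran from 204 for PSAP, the precursor of the saposins that activate sphingolipid hydrolases, down to 0.0286 for CTSS. PSAP was followed by CD63, a late endosomal tetraspanin, at 68.3 FPKM, by the aspartic protease CTSD at 53.3 and by LAMP1 at 48.6. The median over the 8 cathepsins was 33.8 FPKM, over the 13 other hydrolases 6.62 and over the 6 V-ATPase subunits 11.1. Of the transcription factors, TFEB at 0.976 and MITF at 0.628 FPKM were far lower, while TFE3 at 7.17 lay slightly above the median of the other hydrolases. LAMP3 was one of the scarcer transcripts in control, at 1.75 FPKM, and stood at 2.26 with EGCG, 8.01 with resveratrol and 10.2 when both agents were given.

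**Figure D1:**
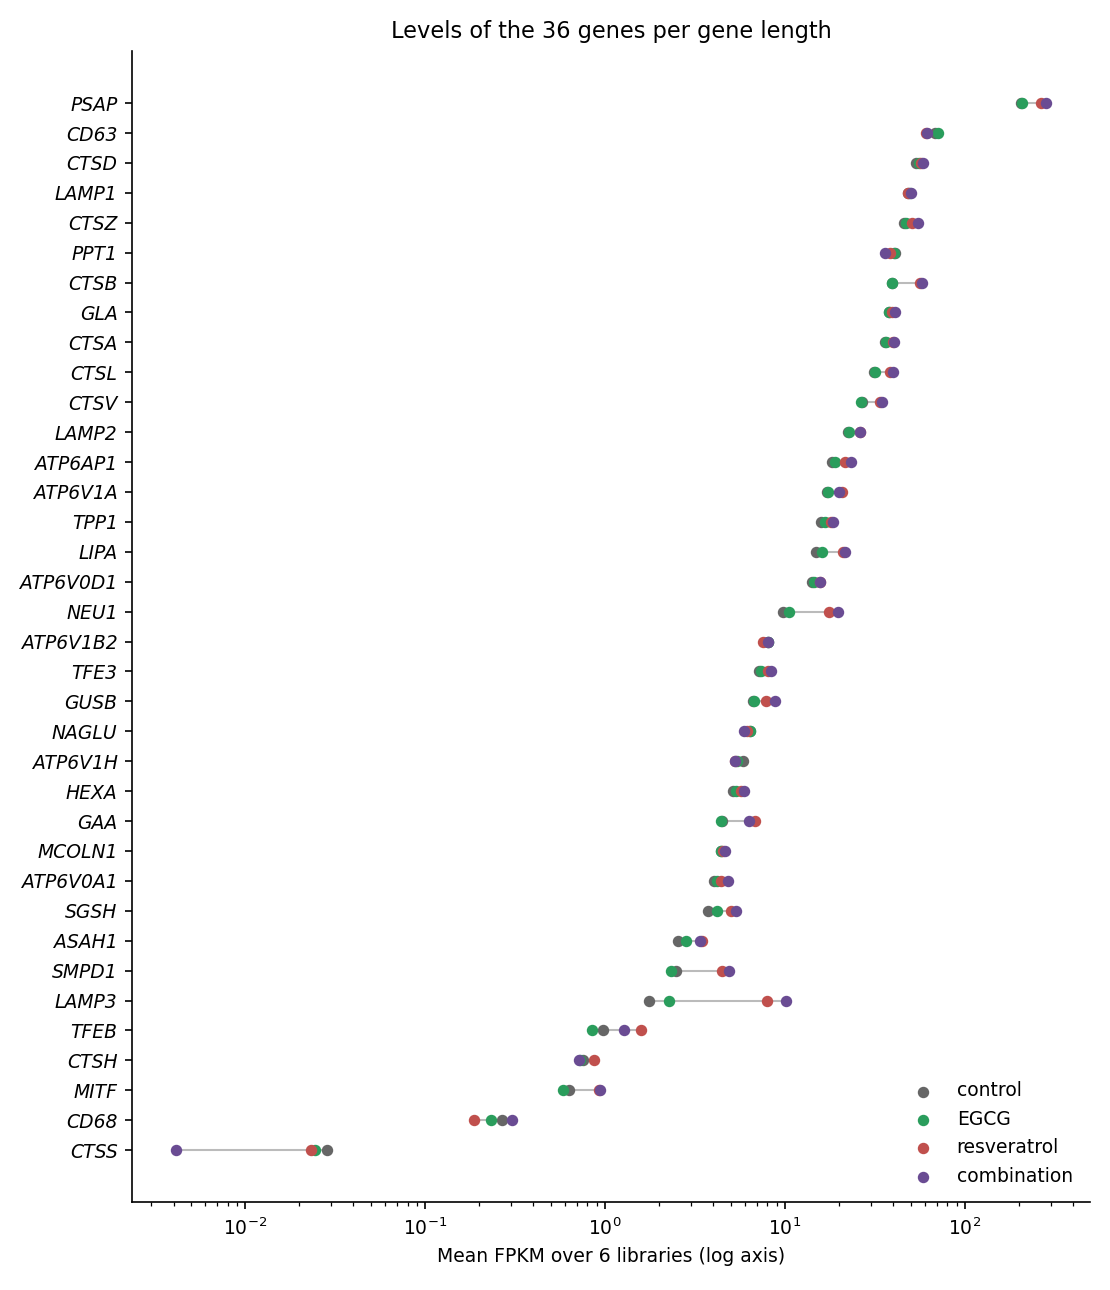
Mean FPKM of each of the 36 genes over 6 libraries (log axis), with 1 point per group; genes are ordered by their control level. LAMP3 spans from 1.75 in control to 10.2 with the combination, while PSAP is the highest in every group; the CTSS means rest on libraries mostly at or near 0.

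The macrophage marker CD68 ranged from 1.06 to 9.64 normalized counts over the 24 libraries, and CTSS, the cathepsin of antigen-presenting cells, from 0 to 3.10. Both were close to the limit of what this depth can detect in every group. Among 8 markers of dendritic and other immune cells only CD83 was tested; its summed list level was 106 to 148 in control, 121 to 162 with EGCG, 98.9 to 131 with resveratrol and 138 to 159 with the combination. The other markers of this list, PTPRC, CCR7, ITGAX, CD1C, CD209, LYZ and CD14, had group means under 1 normalized count in all groups. The mature dendritic cell marker LAMP3 was thus measured in libraries where the other markers of this list were at or near 0, except CD83. CD83 had means of 123, 136, 110 and 144 in control, EGCG, resveratrol and combination. Of 8 fibroblast and endothelial markers 3 were tested; COL1A1 made up most of their sum, with means of 1182, 981, 1445 and 1650 in control, EGCG, resveratrol and combination. PECAM1 and DCN were at or near 0. The part of COL1A1 in the results was not tested.

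LAMP3 (chromosome 3, 183122215 to 183163839, minus strand, GRCh38) had the largest fold change of the set. Its control libraries lay between 50.3 and 62.8 normalized counts with a median of 58.5. The EGCG libraries lay between 56.2 and 87.4 with a median of 76.1, the resveratrol libraries between 248 and 295 with a median of 259, and the combination libraries between 310 and 356 with a median of 337. The resveratrol and combination libraries did not overlap with each other or with the control and EGCG libraries, while 1 end of the EGCG range reached into that of control. LAMP3 rose 4.57-fold with resveratrol (log2 fold change 2.19, SE 0.0763, edgeR adjusted p = 3.29e-23) and 5.80-fold with the combination (2.54, SE 0.0746, adjusted p = 1.39e-25). The exact two-sided permutation test of 6 against 6 libraries gave p = 0.00216 for each, the smallest it can give. Within replicates 1 to 3 the log2 fold changes were 2.13 and 2.53, and within replicates 4 to 6 they were 2.26 and 2.54.

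**Figure D2:**
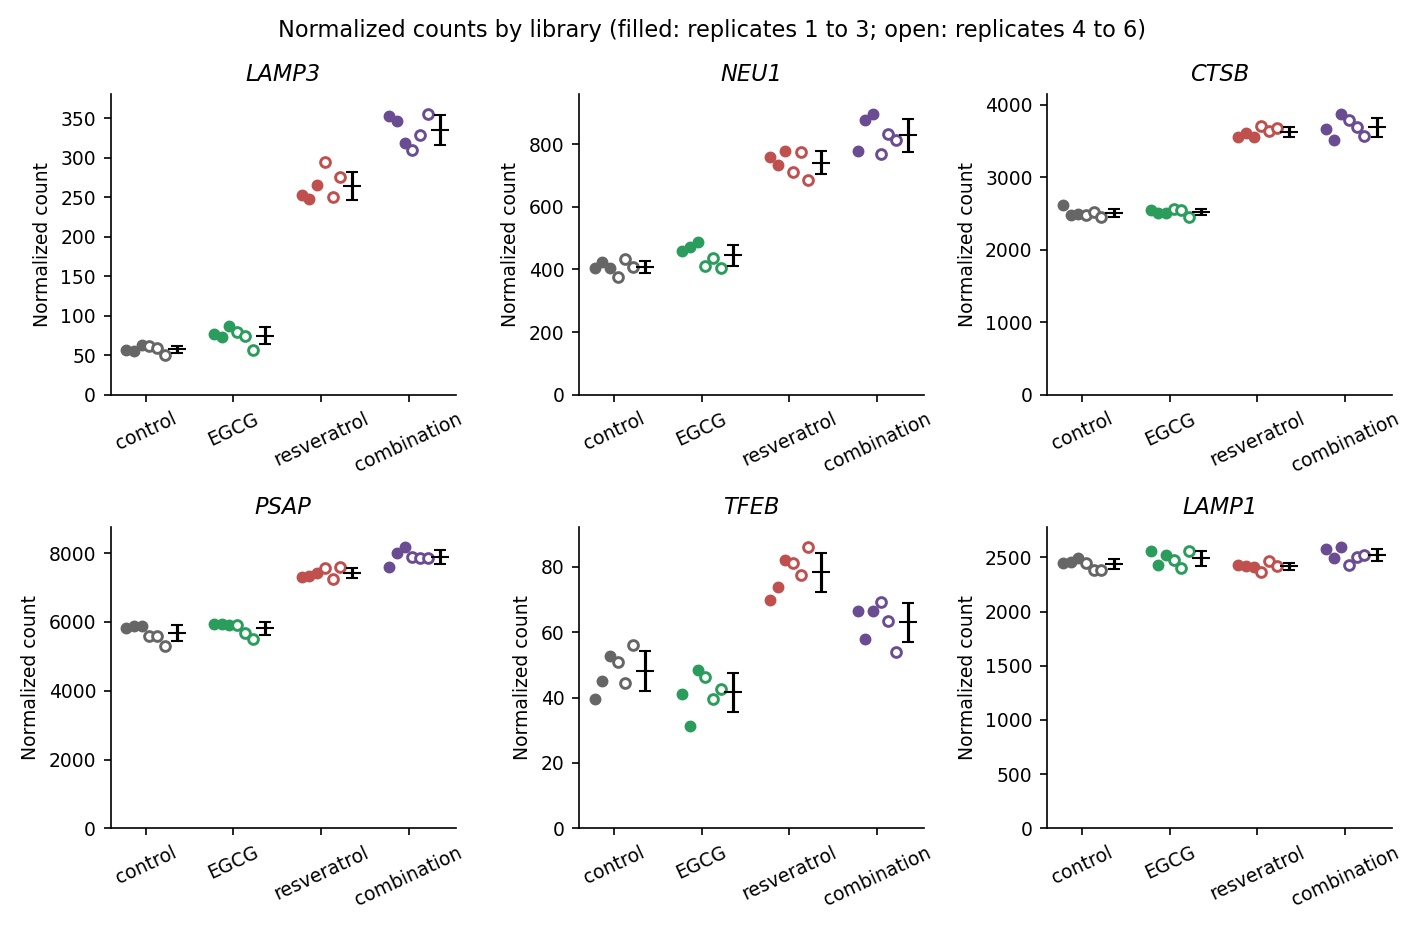
Normalized counts of 6 genes in each of the 24 libraries, 1 panel a gene, with the 4 groups on the horizontal axis; filled points are replicates 1 to 3, open points replicates 4 to 6, and bars the mean ± SD of 6 libraries. LAMP3, NEU1, CTSB and PSAP are higher in every resveratrol and combination library than in any control library, TFEB is higher with resveratrol (69.7 to 86.1) than with the combination (54.0 to 69.3), and the LAMP1 groups overlap.

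Over the whole set, the data showed a broad but mostly small rise with resveratrol. With resveratrol alone 24 of the 34 tested genes rose and 4 fell, against 28.9% and 28.0% of all tested genes. The median log2 fold change of the 34 was 0.22, and that of all tested genes 0.00. With the combination 26 rose and 3 fell, against 29.9% and 29.9% of all tested genes, with a median of 0.24. All 6 treated libraries lay above all 6 control libraries for 20 genes with resveratrol and for 20 with the combination, and below for 1 and 0; libraries failed to overlap, in either direction, for 31.0% and 31.9% of all tested genes. Among the genes that passed the test, 5 changed more than 1.5-fold with resveratrol and 3 with the combination. The share of all tested genes past this fold limit was not computed, so these 2 counts describe size alone. Summed over the 36 genes, the normalized counts were 28464 to 30419 in control, 29473 to 30827 with EGCG, 34658 to 35294 with resveratrol and 35672 to 37030 with the combination. They made up 0.331% of all normalized counts in control and 0.428% with the combination.

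The split between genes that rose and fell with resveratrol depended on scaling. With library size in place of TMM factors it was 28 higher and 0 lower, against 39.7% and 18.5% of all tested genes, whose median log2 fold change moved from 0.00 to 0.092. With genes limited to at least 10 counts in every library it was 26 higher and 1 lower, against 32.8% and 27.2%. At an adjusted p under 0.05 it was 24 higher and 1 lower, against 26.2% and 25.6%. Within replicates 1 to 3, 20 were higher and 1 lower with resveratrol, against 23.2% and 22.6%, and within replicates 4 to 6, 26 were higher and 1 lower, against 23.0% and 23.4%.

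**Figure D3:**
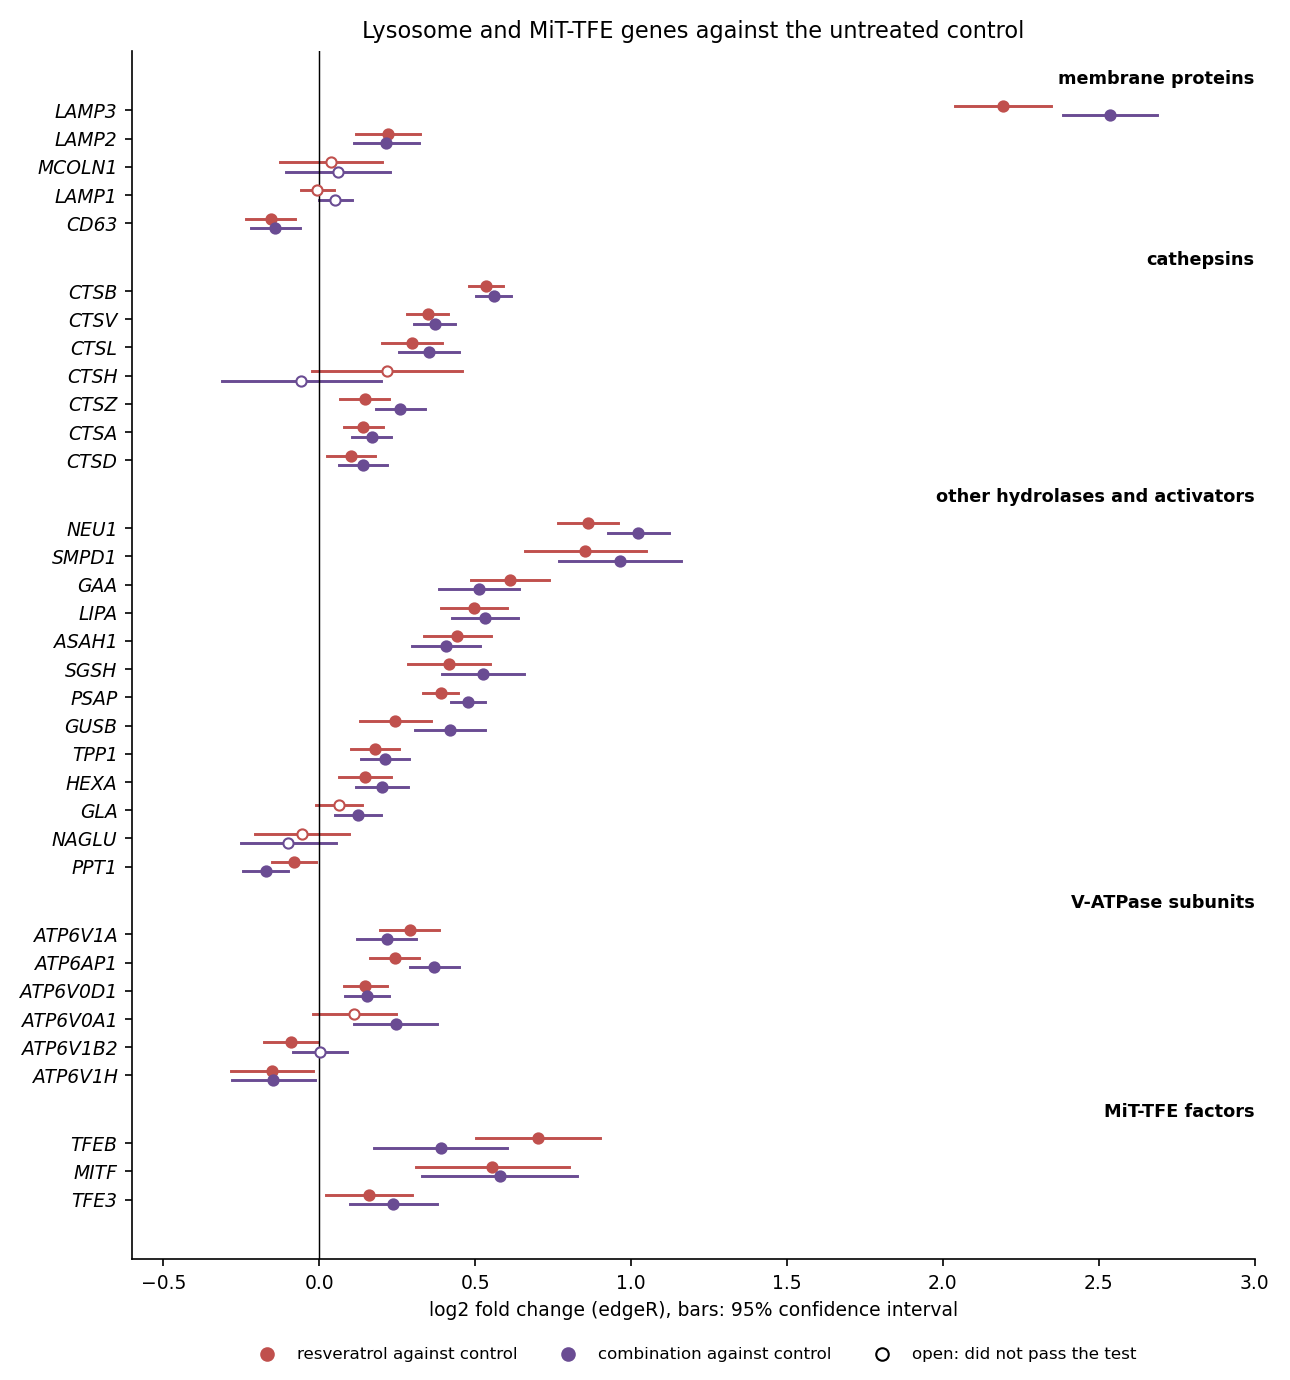
Log2 fold change against the untreated control (horizontal axis) of the 34 tested genes in 5 groups by role, with 95% confidence intervals over 6 libraries a group; filled points passed the test. LAMP3 stands at 2.19 with resveratrol and 2.54 with the combination, and most hydrolases lie to the right of 0 in both comparisons.

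The other LAMP proteins behaved unlike LAMP3. LAMP1, a constitutive structural glycoprotein of the lysosomal membrane, had 2380 to 2496 normalized counts in control, 2406 to 2561 with EGCG, 2366 to 2467 with resveratrol and 2432 to 2595 with the combination, and its groups overlapped. Its log2 fold change was -0.01 with resveratrol (95% interval -0.06 to 0.05) and 0.05 with the combination. LAMP2, which also serves chaperone-mediated autophagy, rose 1.17-fold with resveratrol, from a mean of 1084 ± 46.4 (SD, n = 6) to 1260 ± 32.0, and 1.16-fold with the combination. CD63 fell to 0.898-fold with resveratrol and 0.907-fold with the combination, from 1569 ± 83.6 to 1406 ± 23.9 and 1420 ± 69.4, but not with library size as the scaling, where its adjusted p was 0.151 and 0.213. MCOLN1, the lysosomal calcium channel TRPML1 and a known CLEAR gene, had means of 154 in control, 157 with resveratrol and 160 with the combination, and passed no test. The neighbouring gene PNPLA6 overlaps it on the same strand, with a mean of 378 against 156 for MCOLN1, so reads could be shared between them.

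Of the 7 tested cathepsins, the main lysosomal proteases, 6 rose with resveratrol and the same 6 with the combination, against 28.9% and 29.9% of all tested genes. Their median log2 fold changes were 0.22 and 0.26. CTSB, a cysteine protease, changed most. It had 2451 to 2615 normalized counts in control, 2453 to 2569 with EGCG, 3549 to 3706 with resveratrol and 3519 to 3878 with the combination. The groups with resveratrol lay apart from those without it, with 1.45-fold (log2 0.54, SE 0.0272) and 1.47-fold (0.56, SE 0.0272) rises. The related cysteine proteases CTSL and CTSV rose 1.23-fold and 1.27-fold with resveratrol and 1.28-fold and 1.29-fold with the combination. They are close paralogs and reads could be split between them. CTSL pseudogenes held at most 0.149 normalized counts on average. CTSA, the protective protein for NEU1 and GLB1, rose 1.10-fold and 1.12-fold, CTSD 1.07-fold and 1.10-fold, and CTSZ 1.11-fold and 1.20-fold. Within replicates 1 to 3 alone CTSD and CTSZ did not pass with resveratrol (log2 0.05 and 0.10, edgeR adjusted p = 0.470 and 0.163). Within replicates 4 to 6 alone they passed, with log2 values of 0.15 and 0.19. CTSA overlaps PLTP, and CTSZ overlaps NELFCD, on the other strand. The strand setting of the counting is not given in the sources used here, so their reads cannot be told apart with certainty. The aminopeptidase CTSH, at 30.6 to 52.4 normalized counts over all libraries, had log2 values of 0.22 (95% interval -0.02 to 0.46) and -0.06 (-0.31 to 0.20) and passed neither test.

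Most of the other hydrolases and activators rose. With resveratrol 10 of 13 rose and 1 fell (median log2 fold change 0.39), against 28.9% and 28.0% of all tested genes. With the combination 11 rose and 1 fell (median 0.42), against 29.9% and 29.9%. NEU1, the lysosomal sialidase (chromosome 6, 31857659 to 31862905, minus strand), had 377 to 434 normalized counts in control, 405 to 488 with EGCG, 686 to 778 with resveratrol and 769 to 898 with the combination. It rose 1.82-fold with resveratrol (log2 0.86, SE 0.0481, adjusted p = 2.9e-17) and 2.03-fold with the combination (1.02, SE 0.0480, adjusted p = 1.3e-19). No library with resveratrol overlapped with one without it.

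SMPD1, acid sphingomyelinase, rose 1.81-fold and 1.95-fold; its libraries lay between 51.5 and 75.0 normalized counts in control, between 91.0 and 120.5 with resveratrol and between 105 and 129 with the combination. ASAH1, acid ceramidase, which acts on the product of SMPD1, rose 1.36-fold and 1.33-fold. PSAP had 5312 to 5884 normalized counts in control, 7252 to 7603 with resveratrol and 7594 to 8178 with the combination. It rose 1.31-fold and 1.39-fold. GLA, the alpha-galactosidase, which also acts on glycosphingolipids, rose 1.09-fold with the combination and did not pass with resveratrol (log2 0.06, 95% interval -0.01 to 0.14). GLA overlaps RPL36A on the other strand.

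Among the enzymes for glycogen and glycans, GAA, acid alpha-glucosidase, rose 1.53-fold with resveratrol and 1.43-fold with the combination. Its control libraries spanned 178 to 229 normalized counts, the resveratrol libraries 278 to 338 and the combination libraries 269 to 324. SGSH, a heparan sulfate sulfatase, rose 1.33-fold and 1.44-fold, GUSB, beta-glucuronidase, 1.18-fold and 1.34-fold, and HEXA, a subunit of beta-hexosaminidase, 1.11-fold and 1.15-fold. GUSB has many pseudogene copies, of which GUSBP1 held 194 normalized counts on average, so its level is uncertain. With resveratrol GUSB did not pass within replicates 1 to 3 alone (log2 0.16, edgeR adjusted p = 0.159) and passed within replicates 4 to 6 alone (0.33). SGSH overlaps SLC26A11 on the other strand. NAGLU, which acts on the same heparan sulfate chains as SGSH, had log2 values of -0.06 (95% interval -0.20 to 0.09) and -0.10 (-0.25 to 0.05) and passed neither test.

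LIPA, the acid lipase that frees cholesterol from its esters, rose 1.41-fold and 1.44-fold. It had 571 to 667 normalized counts in control, 823 to 948 with resveratrol and 771 to 1028 with the combination. Its annotated locus spans IFIT1, IFIT2 and IFIT3 on the other strand, with means of 249, 229 and 228 against 783 for LIPA. The tripeptidyl peptidase TPP1 rose 1.13-fold and 1.16-fold. The thioesterase PPT1 moved the other way: it fell, by log2 values of -0.08 with resveratrol and -0.17 with the combination. Its libraries lay between 1651 and 1887 normalized counts in control, between 1654 and 1762 with resveratrol and between 1538 and 1750 with the combination. With library size as the scaling its change with resveratrol was 0.0081 and the direction reversed. The fall with resveratrol also did not pass with at least 10 counts in every library (edgeR adjusted p = 0.189). Nor did it pass within replicates 1 to 3 or 4 to 6 alone (edgeR adjusted p = 0.164 and 0.181), while the fall with the combination passed in both sets.

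The V-ATPase subunits moved little and not in 1 direction. With resveratrol 3 of 6 rose and 2 fell, against 28.9% and 28.0% of all tested genes. With the combination 4 rose and 1 fell, against 29.9% and 29.9%. The median log2 fold changes were 0.13 and 0.18. ATP6AP1, an accessory subunit of the pump, rose 1.18-fold and 1.29-fold. It had 756 to 792 normalized counts in control, 830 to 972 with resveratrol and 965 to 1068 with the combination. ATP6V1A, the catalytic subunit, rose 1.22-fold and 1.16-fold, and the membrane sector subunit ATP6V0D1 1.11-fold in both. ATP6V0A1, of the same sector, rose 1.19-fold with the combination and had a log2 value of 0.11 (95% interval -0.02 to 0.25) with resveratrol. ATP6V1H fell to 0.901-fold and 0.903-fold, and ATP6V1B2 to 0.939-fold with resveratrol. With library size as the scaling, or with at least 10 counts in every library, neither of these 2 passed.

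All 3 MiT-TFE factors rose with resveratrol and with the combination, TFEB and MITF from low levels, against 28.9% and 29.9% of all tested genes. TFEB had 39.6 to 56.0 normalized counts in control, 31.2 to 48.5 with EGCG, 69.7 to 86.1 with resveratrol and 54.0 to 69.3 with the combination. The resveratrol libraries lay above all others, and the combination range met that of control. TFEB rose 1.63-fold with resveratrol (log2 0.70, SE 0.0985) and 1.31-fold with the combination (0.39, SE 0.105). MITF rose 1.47-fold and 1.49-fold. Its libraries lay between 30.9 and 47.9 normalized counts in control, between 51.5 and 68.0 with resveratrol and between 50.0 and 74.9 with the combination. TFE3, the most abundant of the 3, rose 1.12-fold and 1.18-fold, with overlapping libraries. Within replicates 1 to 3 alone TFE3 had a log2 value of 0.05 with resveratrol and did not pass (edgeR adjusted p = 0.721), and within replicates 4 to 6 alone it rose by 0.27. TFEB with the combination rose by 0.48 within replicates 1 to 3 and had 0.30 within replicates 4 to 6, where it did not pass (edgeR adjusted p = 0.134). MITF passed in both sets in both comparisons. Transcript levels do not show where these proteins were in the cell.

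EGCG alone changed little in this set. LAMP3 rose 1.30-fold (log2 0.38, SE 0.0959, adjusted p = 0.0319, exact permutation p = 0.0108), and it was the 1 gene of 34 that passed, against 0.905% of all tested genes higher and 0.859% lower. None fell. At an unadjusted edgeR p under 0.05 there were 5 genes, LAMP3 with SGSH, ASAH1, NEU1 and LIPA, whose log2 values were 0.17, 0.15, 0.13 and 0.11. DESeq2 also called 1. The median log2 value over the 34 was 0.02. Within replicates 1 to 3 alone LAMP3 had a log2 value of 0.44 and within replicates 4 to 6 alone 0.31, and with 3 libraries a group it passed in neither (edgeR adjusted p = 0.223 and 0.664).

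Adding EGCG to resveratrol moved few of these genes further. Against resveratrol alone 6 genes were higher with the combination and 1 was lower, against 4.01% and 3.86% of all tested genes. LAMP3 rose another 1.27-fold (log2 0.34, SE 0.0573, adjusted p = 0.000129) with no overlap between the libraries. GUSB rose 1.13-fold, NEU1 1.12-fold, ATP6AP1 1.09-fold, CTSZ 1.08-fold and PSAP 1.06-fold, all with overlapping libraries. TFEB went the other way, to 0.805-fold (log2 -0.31, SE 0.0945, edgeR adjusted p = 0.045), with all combination libraries below all resveratrol libraries, but DESeq2 gave an adjusted p of 0.108. Without combination replicate 3, which stood apart in LAMP2, CTSA and TFE3, 2 genes were higher (LAMP3 and NEU1) and 1 lower (TFEB), against 3.34% and 3.11% of all tested genes. GUSB, CTSZ, PSAP and ATP6AP1 kept their direction but no longer passed, with log2 values of 0.13, 0.09, 0.08 and 0.10 in place of 0.18, 0.11, 0.09 and 0.13.

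**Figure D4:**
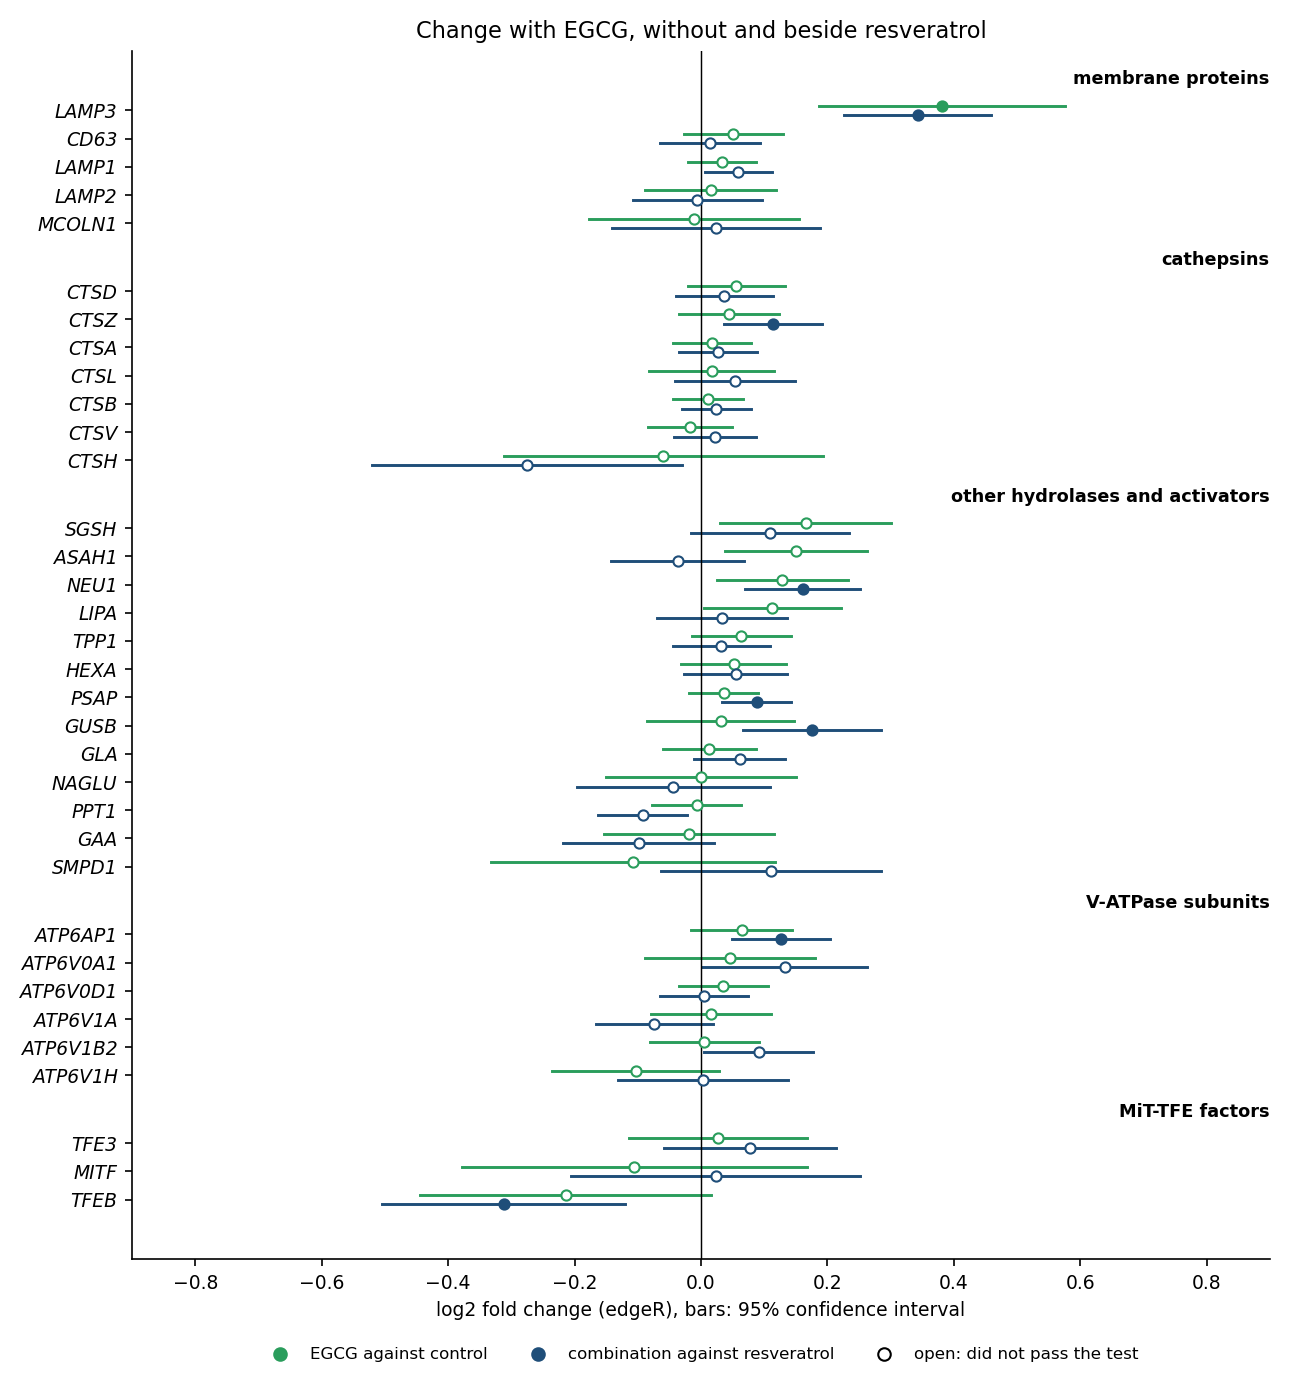
Log2 fold change with EGCG (horizontal axis) of the 34 tested genes, against control and beside resveratrol, with 95% confidence intervals over 6 libraries a group; filled points passed the test. LAMP3 passed in both, at 0.38 and 0.34, and TFEB lies lowest beside resveratrol at -0.31.

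Whether the effect of EGCG differed with resveratrol present was tested as an interaction. None of the 34 genes passed, against 0.207% of all tested genes higher and 0.0582% lower, with edgeR or with DESeq2. At an unadjusted p under 0.05 there was 1, ASAH1, with a log2 interaction of -0.19 (95% interval -0.34 to -0.03, edgeR adjusted p = 0.52). For LAMP3 the interaction was -0.04 (95% interval -0.26 to 0.19) on the log2 scale. The interval for TFEB ran from -0.40 to 0.20.

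The change with resveratrol was measured a second time in the combination against EGCG, which shares no library with resveratrol against control. In that comparison 26 genes rose and 2 fell, against 28.7% and 29.1% of all tested genes. Of the 28 genes that passed in each comparison 26 passed in both, each in the same direction, and 33 of 34 had the same sign. ATP6V1B2 and ATP6V1H passed only against control, and ATP6V0A1 and GLA only against EGCG; the differences between the comparisons were not past the threshold in the interaction test. LAMP3 rose 4.57-fold in the first and 4.45-fold in the second, NEU1 1.82-fold and 1.86-fold, SMPD1 1.81-fold and 2.10-fold, and TFEB 1.63-fold and 1.52-fold. Across the 34 genes, which are not independent replicates, Pearson's r between the log2 fold changes was 0.978, and 0.948 without LAMP3. The same agreement was not computed over all tested genes, so it is not shown to be particular to this set.

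**Figure D5:**
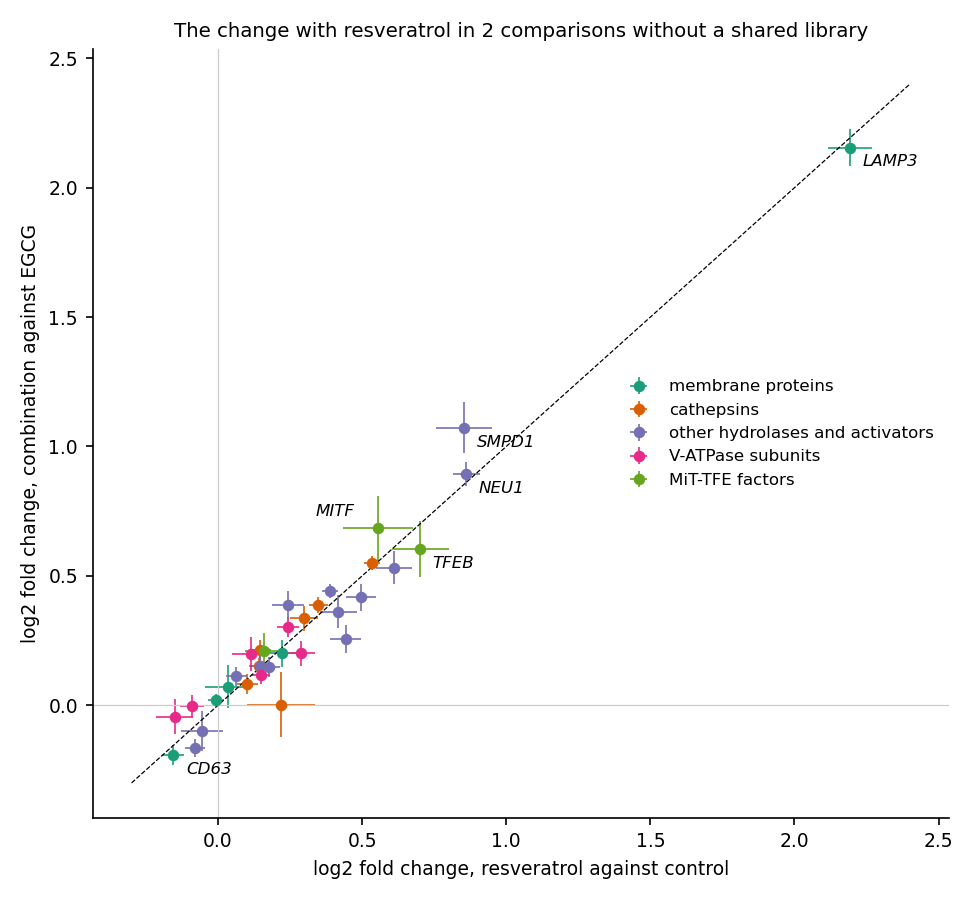
Log2 fold change with resveratrol against control (horizontal axis) and with the combination against EGCG (vertical axis) for the 34 tested genes, colored by role, with bars of 1 SE; the dashed line marks equal values. The points follow the line, from CD63 below 0 to LAMP3 at 2.19 and 2.15.

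The 5 genes that carry the CLEAR palindrome printed above did not change alike. GAA rose 1.53-fold with resveratrol, CTSA and ATP6V0D1 1.10-fold and 1.11-fold, and LAMP1 and MCOLN1 did not pass. With the combination 3 of the 5 genes with TCACGTGA rose, and 15 of the 19 other genes with a promoter entry, against 29.9% of all tested genes. The median log2 fold change with the combination was 0.15 in the 8 genes with CACGTG and 0.35 in the 16 without it. CD68 is among the 19 and the 16 but was not tested, so it could not count as a rise and enters no median. NEU1 carries the shorter TCACGTG and rose 2.03-fold, while CTSD, also with it, rose 1.10-fold. These are descriptions of 24 promoters and of these letters in a short window. LAMP3, CTSB and PSAP had no promoter entry, and a link between the element and the changes was not tested.

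A further 104 genes of the lysosome, not in the set above, were grouped by role, and 93 were tested. With resveratrol 54 rose and 11 fell, and with the combination 56 rose and 15 fell, with median log2 fold changes of 0.18 and 0.22. All tested genes rose and fell in 28.9% and 28.0% with resveratrol and in 29.9% and 29.9% with the combination, and the counts by role that follow are read against these shares. Of the hydrolases and activators 27 of 33 rose in each comparison, 1 fell with resveratrol and 2 with the combination, and the medians were 0.39 and 0.43. Among these hydrolases the largest changes with the combination were in CTSO and CTSF, 2 further cathepsins, and IDUA, alpha-L-iduronidase, at 2.20-fold, 2.19-fold and 2.11-fold. These 3 were scarce, with control means of 5.21, 8.74 and 7.39 normalized counts.

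Of 23 further lysosomal membrane proteins 14 rose and 2 fell with resveratrol, and 13 rose and 2 fell with the combination. TMEM175, a lysosomal ion channel, rose 2.55-fold with the combination. Its libraries lay between 41.2 and 57.9 normalized counts in control and between 109 and 146 with the combination. The transferase HGSNAT and the nucleoside transporter SLC29A3 each rose 1.64-fold. Of 6 genes that sort enzymes to the lysosome 4 rose and 1 fell with the combination, led by sortilin (SORT1) at 1.56-fold, then GNPTG at 1.20-fold and the mannose 6-phosphate receptor IGF2R at 1.17-fold. Of 13 further V-ATPase subunits 7 rose and 2 fell, with ATP6V0E2 at 1.64-fold, ATP6V1F at 1.30-fold and ATP6V1E1 at 1.17-fold (median log2 fold change 0.10).

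Of the 18 tested genes that regulate TFEB, 5 rose and 6 fell with resveratrol, close to the shares of all tested genes. With the combination 5 rose and 8 fell, with a median log2 fold change of -0.07. The calcineurin catalytic subunits PPP3CB and PPP3CA, which belong to the phosphatase that activates TFEB, fell to 0.690-fold and 0.728-fold with the combination. PPP3CB had 295 to 321 normalized counts in control and 179 to 242 with the combination, and PPP3CA 658 to 755 and 445 to 559. RRAGC, a Rag GTPase that brings TFEB to mTORC1 on the lysosome, rose 1.41-fold.

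Over the 24 libraries, the pattern of LAMP3 was compared with that of all tested genes by Pearson's r of log2 CPM. These are counts scaled to library size with TMM factors. This r is a measure of likeness and was not tested, since the libraries fall into groups by treatment. The 5 most similar genes were CHAC1, a glutathione-degrading enzyme (r = 0.992), GABARAPL1, an autophagosome protein of the ATG8 family (0.992), TSC22D3, the glucocorticoid-induced leucine zipper protein (0.991), ACSS2, which makes acetyl-CoA from acetate (0.990), and PCK2, the mitochondrial phosphoenolpyruvate carboxykinase (0.988). CHAC1 had means of 496, 602, 1177 and 1354 normalized counts in control, EGCG, resveratrol and combination, and GABARAPL1 of 667, 689, 1496 and 1710. Within the set PSAP was closest to LAMP3 (r = 0.986) and CD63 was farthest (-0.733). TFEB stood at 0.782.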

How the data were processed

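After trimming (Trimmomatic 0.36) and alignment to GRCh38 (HISAT2 2.0.4, SAMtools 1.3.1) the authors deposited raw counts per gene, a normalized signal (counts divided by DESeq2 1.20.0 size factors) and FPKM values. Submitters' notes also name bcl2fastq 2.17.1.14 and FastQC 0.11.5. The counting program, its strand setting and the annotation release are not given in the sources used here. The deposited FPKM values equal normalized counts times 1 constant per gene, so they depend on the gene length the authors used.

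Raw counts were tested with edgeR 4.0.16 (R 4.3.3, TMM factors, filterByExpr, quasi-likelihood F-test) in 1 fit of all 24 libraries, with Benjamini-Hochberg adjustment over 15476 genes. The limits on p are those of the study's methods. The biological coefficient of variation was 5.32%. Exact two-sided permutation tests used log2 CPM with a prior count of 2 and all 924 splits. DESeq2 1.42.0, other scalings, filters and subsets of libraries were alternatives. The scripts were tested on simulated counts.

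The members and lists were chosen with earlier results of these data known. All 36 genes could be named. From each list of other lysosomal genes the 3 with the largest change among those that passed with the combination were named, and likewise the 5 genes most like LAMP3 and the members with the highest and lowest r. Coordinates are from GENCODE on GRCh38 and promoters from RefSeq. The result of 1 gene of the other lists is not reported here.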

Additional observations from a re-analysis of the deposited data

Results flagged for a closer look

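In each of 144 groups of 6 libraries (36 genes in 4 groups), the lowest or highest library was compared with the others by Dixon's ratio, and 10 stood apart, where chance gives about 1 in 20 groups. Combination replicate 3 accounted for 4 of them. It had 1033 normalized counts of LAMP2 (others 1254 to 1353), 2225 of CTSA (others 2004 to 2062), 370 of TFE3 (others 282 to 308) and 0.877 of CTSS (others 0). MCOLN1 was at 123 in control replicate 5 (others 159 to 161), and PPT1 at 1651 in control replicate 6 (others 1812 to 1887). NAGLU was at 190 in control replicate 1 (others 153 to 166) and at 196 in EGCG replicate 1 (others 144 to 163). ATP6V0A1 was at 450 in EGCG replicate 3 (others 376 to 401), and CTSS at 3.10 in resveratrol replicate 5 (others 0 to 0.955).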

How the results depend on the processing

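The counts of the 34 genes that passed with resveratrol, with the combination and with the combination against EGCG stayed within 1.5 times of 28, 29 and 28 under all alternatives run: DESeq2, its size factors, library size, both filters, an adjusted p under 0.05, the compared groups alone, a term for replicates 1 to 3 and 4 to 6, each of these sets alone, and no combination replicate 3. Combination against resveratrol moved from 7 to 3 with genes of at least 1 count, to 3 in replicates 1 to 3 alone, to 1 in replicates 4 to 6 alone and to 3 without combination replicate 3 (chosen after the data were seen). Of all tested genes 4.01% were higher and 3.86% lower in the main fit. In the same order these shares became 1.62% and 1.67%, 2.37% and 2.83%, 1.51% and 1.07%, and 3.34% and 3.11%. EGCG against control moved from 1 to 0 in replicates 1 to 3 alone and to 0 in replicates 4 to 6 alone, where fewer libraries entered. There the shares of all tested genes went from 0.905% higher and 0.859% lower to 0.287% and 0.249%, and to 0.253% and 0.298%. The cause of the other moves was not tested. PPT1 with resveratrol reversed to 0.0081 with library size. LAMP3 kept its direction and its call against control with resveratrol and with the combination throughout.

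Same-numbered libraries deviated together only weakly, with r from -0.0111 to 0.131 over 36 pairs (2 over 0.1). The median r was 0.0488, against 0.0337 for other numbers of the same set and -0.0361 for the other set. In 15 of the 36 pairs the closest of the 6 libraries was the one of the same number. A weak pairing is therefore not excluded. The main fit took none, and a block for the replicate number was an alternative. With the replicate block, 28 genes passed with resveratrol, against 29.6% of all tested genes higher and 28.8% lower. With the combination 30 passed (30.5% and 30.7%), for the combination against resveratrol 8 (4.91% and 4.91%) and with EGCG 1 (1.16% and 1.23%). Depth limits CD68 and CTSS, and overlapping or copied gene models limit MCOLN1, GUSB, CTSA, CTSZ, GLA, LIPA and SGSH.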
